A study of Homo sapiens with 9 samples.

Results

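The transforming growth factor beta (TGF-beta), activin and bone morphogenetic protein (BMP) pathway was followed through 10 genes, TGFB1, TGFB2, TGFB3, INHBA, BMP4, TGFBR1, TGFBR2, SMAD7, TGFBI and ID1, of 58174 genes in the expression tables. They were taken by gene symbol, and each symbol matched 1 row. Total RNA after depletion of ribosomal RNA was sequenced from ES-2 cells, a cell line derived from an ovarian carcinoma and grown in serum-containing medium. The 3 groups were cells transfected with control siRNA (siC), with an siRNA pool against the mRNA-binding protein IGF2BP1 (siIGF2BP1) or with an siRNA pool against the transcription factor SRF (siSRF), each harvested 72 hours after transfection, with 3 libraries per group. All groups therefore went through transfection, and an untransfected group was not analysed here. The libraries held 6421764 to 9416175 reads on genes. Values are FPKM, fragments scaled to gene length and library size, so that levels of different genes can be set side by side.

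TGF-beta, activin and BMP ligands are secreted dimers that bring type I and type II receptor kinases together. The receptors phosphorylate SMAD2 and SMAD3, mainly for TGF-beta and activin, or SMAD1, SMAD5 and SMAD9, mainly for BMPs, and these enter the nucleus with SMAD4. SMAD6 and SMAD7 inhibit the pathway and are themselves induced by it, and in carcinoma cells the pathway is known both for growth arrest and for matrix production and invasion.

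The targeted genes followed the labels. IGF2BP1 was at 12.8, 13.5 and 12.1 FPKM in the siC libraries, at 4.18, 4.14 and 4.02 FPKM in the siIGF2BP1 libraries and at 13.7, 14.6 and 14.4 FPKM in the siSRF libraries. SRF was at 13.6, 14.1 and 16 FPKM in siC, at 5.80, 5.42 and 6.80 FPKM in siIGF2BP1 and at 1.63, 1.36 and 1.42 FPKM in siSRF. Each target was lowest in the libraries of its own siRNA pool, and SRF was also lower upon IGF2BP1 depletion, without overlap with siC. Of 10 ovarian and epithelial markers, KRT7, KRT8 and KRT18 were above 1 FPKM in every library, whereas MUC16 was listed at 0 in all 9 libraries and EPCAM, CDH1 and KRT19 did not exceed 0.259 FPKM. The mesenchymal intermediate filament gene VIM was at 837 to 1065 FPKM, with means of 1055.5, 882.6 and 853.5 FPKM in siC, siIGF2BP1 and siSRF. In the same order, KRT7 averaged 101, 152 and 127 FPKM. KRT8 averaged 8.81, 12.9 and 10.1 FPKM, and KRT18 averaged 43.4, 41.8 and 81.7 FPKM.

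Upon IGF2BP1 depletion, TGFBI, SMAD7 and TGFBR2 were higher than in siC, and none of the 10 genes was called lower by limma-trend or limma-voom, or had an unadjusted limma-trend p under 0.05 in that direction. A gene was called when the adjusted p of limma-trend over all genes tested was at most 0.01. The 3 called genes stand beside 792 of 22292 tested genes called higher, 3.55% of all, and 796 called lower, 3.57% of all. Upon SRF depletion, TGFBI was called lower and none of the 10 was called higher by limma-trend, beside 1167 of 21857 tested genes called lower (5.34%) and 1498 higher (6.85%). In the higher direction, 2 of the 10 had an unadjusted limma-trend p under 0.05, and limma-voom called INHBA. Between both depletions, a comparison without any siC library, TGFBI, SMAD7 and TGFBR2 were higher and INHBA was lower in siIGF2BP1 than in siSRF, where 1968 of 22311 genes were called higher (8.82%) and 2492 lower (11.2%). These background shares include 8404, 8170 and 8304 tested genes with under 10 reads on average, in the same order, of which 67, 87 and 167 were called. Among genes with at least 10 reads, a minimum chosen after seeing the data, 4, 3 and 5 of the 10 genes were called, beside 19.9%, 29.7% and 42.2% of all genes tested. With limma-voom on the reads recovered from the FPKM values, 4, 3 and 7 of the 10 were called, beside 17.1%, 23.4% and 31.0% of all genes. With so few genes, these shares were read as a description and not as a property of the pathway. The limma-voom shares of all genes are also the background of the limma-voom counts below. No share of all genes is given for counts at an unadjusted p, here or below, so these counts only describe the lists.

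**Figure D1:**
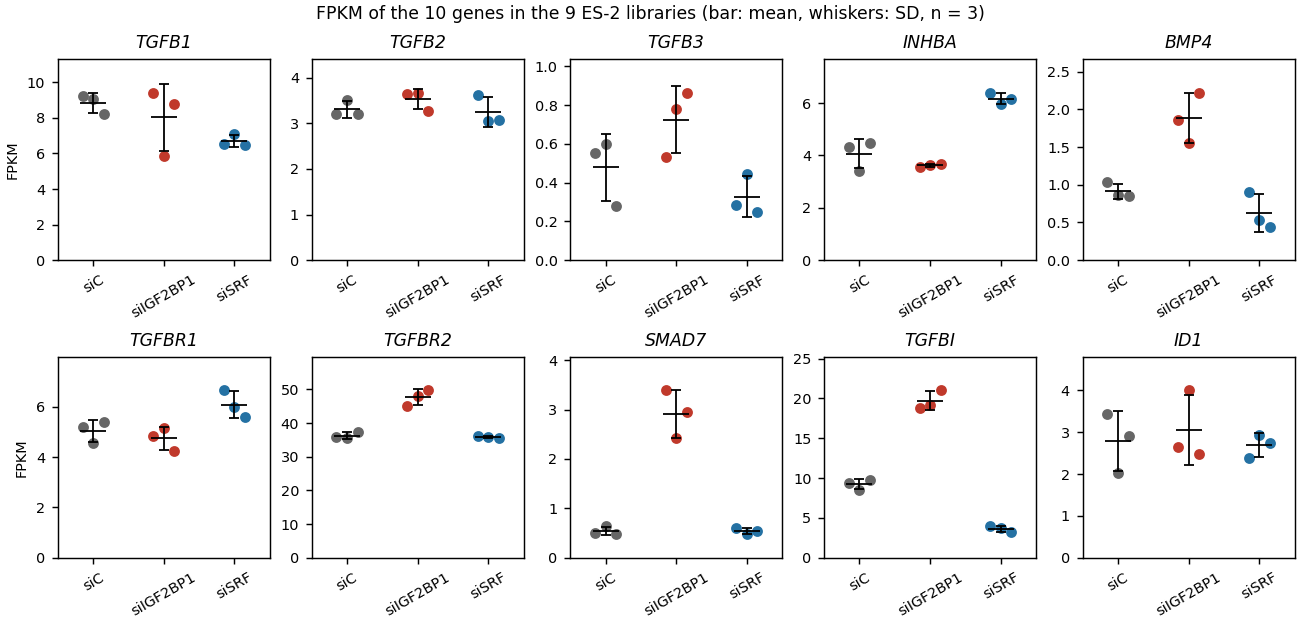
FPKM of each of the 10 genes (y axis, from 0) in the 3 libraries of siC, siIGF2BP1 and siSRF (x axis), with the mean as a bar and the SD as whiskers, n = 3. SMAD7 reached 2.41 to 3.39 FPKM in siIGF2BP1 and stayed at or below 0.638 FPKM in the other libraries, while TGFBI was separate in all 3 groups.

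Among the ligands, TGFB1 was at 9.26, 9.09 and 8.20 FPKM in siC, at 9.43, 5.88 and 8.79 FPKM in siIGF2BP1 and at 6.54, 7.11 and 6.49 FPKM in siSRF. All siSRF libraries lay below all siC libraries, whereas the siIGF2BP1 libraries spread across both, with replicate 2 lowest. The siSRF value was 0.39 lower on the log2 scale of FPKM + 0.1 (difference -0.39, 95% interval -0.57 to -0.21), which missed the threshold with limma-trend (adjusted p = 0.0128) and passed it with limma-voom (adjusted p = 0.00564). The difference between siIGF2BP1 and siC was -0.16 (interval -0.60 to 0.27) and became 0.04 without siIGF2BP1 replicate 2. TGFB1 lies on the minus strand of chromosome 19 and overlaps HNRNPUL1, a gene of the opposite strand with a mean of 50.9 FPKM. The libraries were made with a directional kit, but whether reads were counted by strand is not given in the sources used here, so the TGFB1 level is uncertain to that extent.

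TGFB2, the second TGF-beta isoform, ranged from 3.05 to 3.67 FPKM over the 9 libraries, and its groups overlapped in every comparison. Its difference from siC was 0.09 (interval -0.15 to 0.33) upon IGF2BP1 depletion and -0.03 (interval -0.29 to 0.24) upon SRF depletion. The antisense gene TGFB2-AS1, which overlaps it on the other strand, was at 1.04, 2.05 and 1.28 FPKM on average in siC, siIGF2BP1 and siSRF. TGFB3, the least abundant of the 10 in every group, rested on 9 to 36 reads per library and overlaps IFT43, a gene of the opposite strand with a mean of 2.19 FPKM, so its level carries the same doubt as that of TGFB1. It was at 0.531, 0.781 and 0.865 FPKM in siIGF2BP1 and at 0.285, 0.446 and 0.248 FPKM in siSRF, so that these groups did not overlap, while the siC libraries spread from 0.281 to 0.599 FPKM. The difference between the depletions was 0.96 (interval 0.16 to 1.76), with an adjusted p of 0.0738 by limma-trend and 0.00678 by limma-voom.

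INHBA encodes the subunit of activin A, and overlaps INHBA-AS1 on the other strand, at a mean of 0.112 FPKM. It was at 4.31, 3.42 and 4.48 FPKM in siC, at 3.55, 3.63 and 3.68 FPKM in siIGF2BP1 and at 6.40, 5.96 and 6.16 FPKM in siSRF. The siSRF libraries were the highest and overlapped neither other group, while siC and siIGF2BP1 overlapped. INHBA was 0.75 lower on the log2 scale in siIGF2BP1 than in siSRF (difference -0.75, interval -0.92 to -0.59, limma-trend adjusted p = 4.2e-04). Against siC, the siSRF difference was 0.60 (interval 0.32 to 0.88) with a limma-trend adjusted p of 0.0136 and a limma-voom adjusted p of 8.6e-06, so that this call depended on the test.

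BMP4 was at 1.03, 0.859 and 0.852 FPKM in siC, at 1.86, 1.56 and 2.22 FPKM in siIGF2BP1 and at 0.910, 0.534 and 0.440 FPKM in siSRF. The siIGF2BP1 libraries were the highest, and siSRF overlapped siC. The difference of 0.96 between siIGF2BP1 and siC (interval 0.47 to 1.44) had an adjusted p of 0.0231 by limma-trend and 0.00286 by limma-voom, and that of 1.48 between the depletions (interval 0.77 to 2.19) had 0.0103 and 2.1e-05. BMP4 rested on 10 to 58 reads per library.

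Of the receptors, TGFBR2, the type II receptor that binds TGF-beta, was the most abundant of the 10 genes in every group. It was at 35.7, 35.5 and 37.4 FPKM in siC, at 45.0, 48.1 and 49.8 FPKM in siIGF2BP1 and at 36.2, 35.8 and 35.7 FPKM in siSRF. All siIGF2BP1 libraries were above the others, and siSRF lay within the range of siC. TGFBR2 was 0.39 higher on the log2 scale upon IGF2BP1 depletion (interval 0.27 to 0.52, limma-trend adjusted p = 0.00463) and 0.41 higher in siIGF2BP1 than in siSRF (interval 0.30 to 0.51, adjusted p = 9.4e-04). The former call was lost when any library but siIGF2BP1 replicate 1 was left out, with limma-trend adjusted p-values of 0.0214, 0.0208 and 0.0146 without siC replicates 1, 2 and 3 and of 0.0229 and 0.0233 without siIGF2BP1 replicates 2 and 3, while the difference stayed between 0.36 and 0.42. TGFBR1, its type I partner, was at 5.18, 4.56 and 5.37 FPKM in siC, at 4.82, 5.17 and 4.24 FPKM in siIGF2BP1 and at 6.66, 5.99 and 5.59 FPKM in siSRF. The siSRF libraries were above all others, and no TGFBR1 difference passed limma-trend. Between the depletions it was -0.35 (interval -0.61 to -0.10), with an adjusted p of 0.0457 by limma-trend and 0.00221 by limma-voom.

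SMAD7, which blocks receptor signalling and recruits ubiquitin ligases to the receptors, showed the largest difference of the 10 genes from siC. It was at 0.492, 0.638 and 0.487 FPKM in siC, at 3.39, 2.41 and 2.94 FPKM in siIGF2BP1 and at 0.607, 0.475 and 0.551 FPKM in siSRF. The siIGF2BP1 libraries stood far above both other groups, which overlapped. The log2 difference was 2.23 between siIGF2BP1 and siC (interval 1.73 to 2.73, limma-trend adjusted p = 0.00148) and 2.22 between the depletions (interval 1.74 to 2.69, adjusted p = 3.9e-04). Without siIGF2BP1 replicate 3, the former was 2.22 with an adjusted p of 0.0129. Between siSRF and siC it was 0.02 (interval -0.62 to 0.65), which at 12 to 96 reads per library over the series leaves room for changes in either direction.

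TGFBI, a secreted matrix protein named for its induction by TGF-beta, moved in opposite directions in both depletions. It was at 9.42, 8.50 and 9.75 FPKM in siC, at 18.8, 19.2 and 21.0 FPKM in siIGF2BP1 and at 3.93, 3.79 and 3.18 FPKM in siSRF. No groups overlapped. TGFBI was 1.08 higher on the log2 scale than siC upon IGF2BP1 depletion (interval 0.90 to 1.27, limma-trend adjusted p = 6.0e-04) and fell by 1.32 upon SRF depletion (difference -1.32, interval -1.58 to -1.07, adjusted p = 7.0e-04). These comparisons share the siC libraries. The direct comparison, without siC, gave 2.41 (interval 2.18 to 2.64, adjusted p = 2.7e-05). ID1, a transcriptional regulator induced by BMPs, was at 3.44, 2.03 and 2.92 FPKM in siC, at 2.64, 4.0 and 2.49 FPKM in siIGF2BP1 and at 2.39, 2.94 and 2.75 FPKM in siSRF. All its groups overlapped, and its differences from siC were 0.12 (interval -0.50 to 0.74) and -0.03 (interval -0.53 to 0.48), intervals too wide to show that its level was equal.

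**Figure D2:**
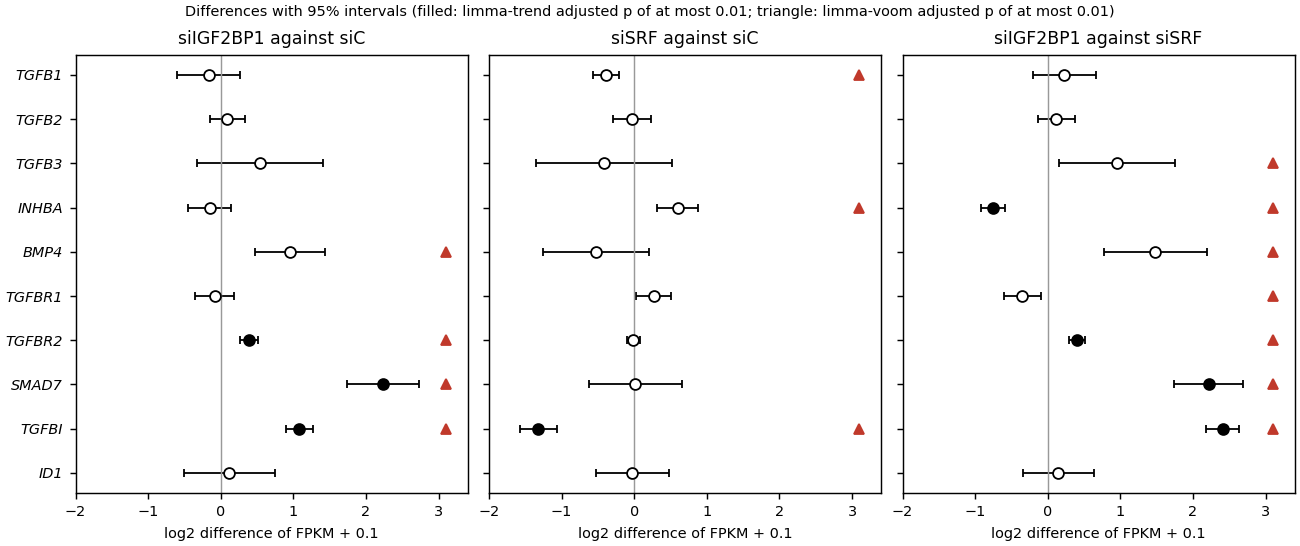
Log2 differences of FPKM + 0.1 (x axis) of the 10 genes (y axis) in 3 comparisons, with 95% intervals, n = 3 per group. Filled points have a limma-trend adjusted p of at most 0.01, triangles mark the same threshold with limma-voom, and TGFBI is filled on opposite sides of 0 in the comparisons with siC, which share those libraries.

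For single genes, the two-sided exact permutation test of 3 against 3 libraries cannot give a p below 0.1, and it gave 0.1 wherever groups did not overlap. In the order of levels within siC, TGFBR2 (36.2 FPKM) was followed by TGFBI (9.23 FPKM) and TGFB1 (8.85 FPKM), which overlapped each other, then by TGFBR1 (5.04 FPKM) and INHBA (4.07 FPKM), which did not. INHBA overlapped TGFB2 (3.30 FPKM), and TGFB2 overlapped ID1 (2.79 FPKM). BMP4 (0.915 FPKM), SMAD7 (0.539 FPKM) and TGFB3 (0.478 FPKM) were lowest, the last 2 with overlapping ranges. In siIGF2BP1, SMAD7 stood above BMP4 and overlapped ID1, and in siSRF, TGFBI had moved from rank 2 to rank 5, where it overlapped TGFB2.

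To set sequence beside the genes that were higher upon IGF2BP1 depletion, the RefSeq promoter table (GRCh38.p14) was searched on both strands in windows of 300 bases around gene starts. The 10 genes had 23 entries. The CArG box, the motif bound by SRF, was in 1 of the 23, an alternative start of TGFBR1, and in 1.29% of all 35116 promoters. The SMAD binding element GTCTAGAC was in 0 of the 23 and in 0.202% of all promoters, GGCGCC, a motif of BMP response elements, in 3 of the 23 and 19.2%, and the AP-1 site TGANTCA in 1 of the 23 and 7.71%. A match is not evidence of binding, and no match says only that these letters are not in the window. The 250 bases before the start farthest upstream are given for each of the 3 genes, with GGCGCC in capitals, the only match in the bases printed. The AP-1 match lies at the other start of TGFBR2, which is not printed.
TGFBI, chr5:136028738-136028987, plus strand: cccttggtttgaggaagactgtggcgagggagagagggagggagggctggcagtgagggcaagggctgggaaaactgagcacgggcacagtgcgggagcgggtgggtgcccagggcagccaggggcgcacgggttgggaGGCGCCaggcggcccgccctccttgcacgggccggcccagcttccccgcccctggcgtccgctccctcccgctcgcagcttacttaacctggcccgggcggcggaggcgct
SMAD7, chr18:48950966-48951215, minus strand: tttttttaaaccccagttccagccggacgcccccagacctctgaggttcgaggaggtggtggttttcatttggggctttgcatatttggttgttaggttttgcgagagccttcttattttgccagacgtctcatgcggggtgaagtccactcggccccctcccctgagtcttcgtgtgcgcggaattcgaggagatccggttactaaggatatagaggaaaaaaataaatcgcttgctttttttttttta
TGFBR2, chr3:30606106-30606355, plus strand: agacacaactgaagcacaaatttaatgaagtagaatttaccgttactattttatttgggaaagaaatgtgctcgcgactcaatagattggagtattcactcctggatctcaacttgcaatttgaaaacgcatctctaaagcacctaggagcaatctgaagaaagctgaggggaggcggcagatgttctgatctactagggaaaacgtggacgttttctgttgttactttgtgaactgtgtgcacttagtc

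The wider pathway was described by 142 genes in lists of ligands, receptors, SMADs, regulators, extracellular factors and target genes. Some genes, such as SMAD7, SKIL, LTBP2 and THBS1, are in several lists, so the counts of different lists repeat calls. Of these, 24 were listed at 0 in all 9 libraries. Upon IGF2BP1 depletion, 21 of 99 tested genes were called higher and 4 lower, with a median log2 difference of 0.24 beside 0.02 over all genes tested. Upon SRF depletion, 14 of 95 were called higher and 6 lower, with a median of 0.02 beside 0.01. Between both depletions, 25 of 98 were called higher and 12 lower in siIGF2BP1, with a median of 0.14 beside 0.02. The called shares were 25.3%, 21.1% and 37.8%, beside 7.12%, 12.2% and 20.0% of all genes. The lists were chosen with earlier results of these data known. A share above the background therefore describes these lists and is not a result about the pathway. Since most pathway genes tested were well covered by reads, the closer background is that of genes with at least 10 reads, where the shares were 36.7%, 34.8% and 56.7% beside 19.9%, 29.7% and 42.2%. The siSRF share was thus near its background with that minimum. With limma-voom, the shares were 40.4%, 41.1% and 54.1% beside 17.1%, 23.4% and 31.0% of all genes. That background includes the genes with under 10 reads and is unlike the closer one, so nearness to it was not judged. Leaving out any 1 of the 6 libraries lowered the 25 genes called upon IGF2BP1 depletion to 14, 13 and 14 without siC replicates 1, 2 and 3 and to 14, 13 and 10 without siIGF2BP1 replicates 1, 2 and 3. Over all genes tested, the share called fell likewise from 7.12% to 3.07%, 3.17%, 3.31%, 2.75%, 2.64% and 1.97%, in the same order, so the losses are not particular to the pathway. The 20 called upon SRF depletion became 16 without each siC replicate, beside 6.59%, 7.07% and 8.22% of all genes, and 12, 10 and 13 without siSRF replicates 1, 2 and 3, beside 4.64%, 4.33% and 5.58%.

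**Figure D3:**
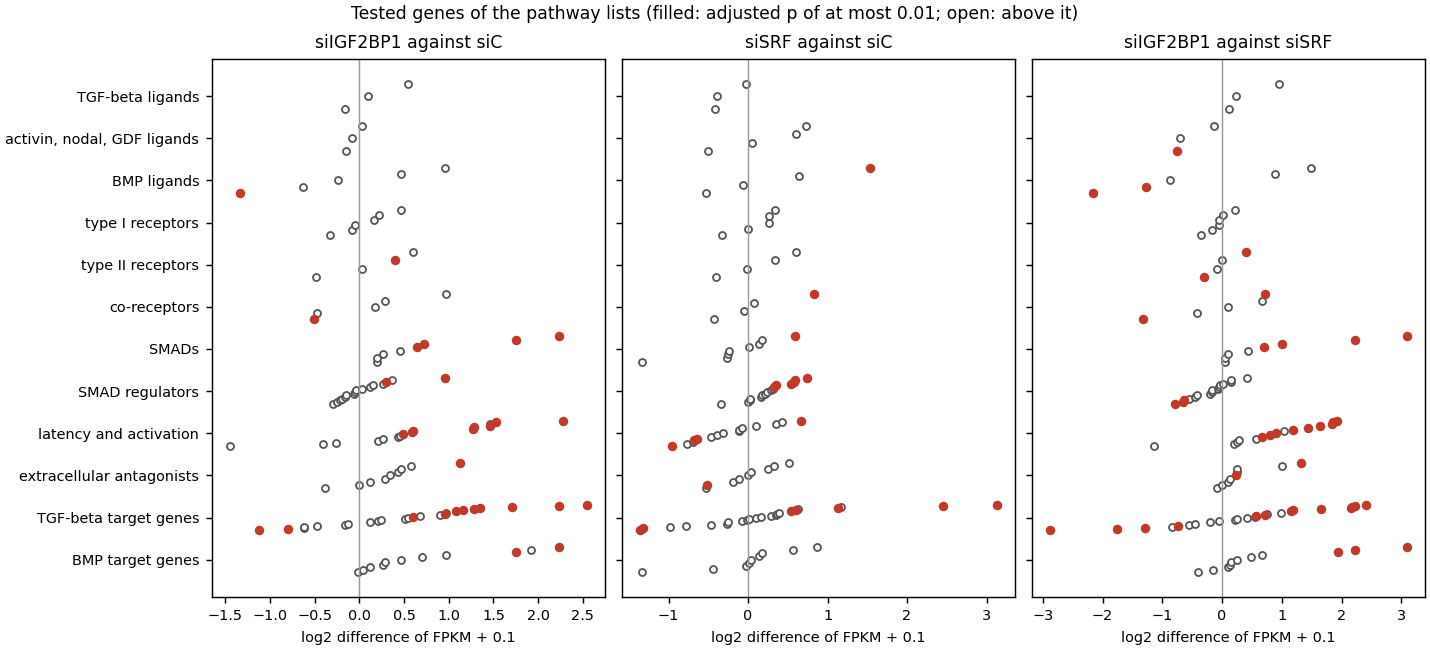
Log2 differences of FPKM + 0.1 (x axis) of the tested genes of 12 pathway lists (y axis) in 3 comparisons, 1 point per gene, filled where the limma-trend adjusted p was at most 0.01. Of the latency and activation genes, 8 of 16 are filled on the right in siIGF2BP1 against siC, and 1 is filled on the right and 3 on the left in siSRF against siC.

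Most ligand genes did not pass the filter on low values. Of 16 BMP ligands, 7 were listed at 0 in all libraries and 5 were tested in siIGF2BP1 against siC. BMP2 was at 2.61, 3.51 and 2.80 FPKM in siC, at 1.05, 1.18 and 1.11 FPKM in siIGF2BP1 and at 2.80, 3.08 and 2.60 FPKM in siSRF, and fell by 1.33 upon IGF2BP1 depletion (difference -1.33, limma-trend adjusted p = 0.00375), a call lost without any 1 library (adjusted p from 0.0122 to 0.0202). BMP6 was at 1.74, 2.54 and 2.83 FPKM in siC, at 1.36, 1.48 and 1.57 FPKM in siIGF2BP1 and at 6.96, 7.89 and 6.10 FPKM in siSRF, 1.54 higher than siC upon SRF depletion (adjusted p = 0.00304, and 0.011, 0.017, 0.0181 and 0.0109 without siC replicate 2 and siSRF replicates 1, 2 and 3). BMP2 was thus low in one depletion and BMP6 high in the other. BMP6 was also lower in siIGF2BP1 than in siC without overlap, which limma-trend did not call. Both genes were called lower in siIGF2BP1 than in siSRF, beside 11.2% of all genes. Of the co-receptors, RGMB, which binds BMPs, was at 19.4 ± 0.52, 13.7 ± 0.97 and 34.5 ± 1.4 FPKM in siC, siIGF2BP1 and siSRF (SD, n = 3). It was called lower upon IGF2BP1 depletion (adjusted p = 0.00452), a call lost without any 1 library (0.0109 to 0.0208), and higher upon SRF depletion, comparisons that share siC. Of 6, 5 and 6 tested type I receptors, none was called by limma-trend in any comparison, limma-voom called 0, 0 and 1, and 1, 2 and 1 had an unadjusted limma-trend p under 0.05. With 7.12%, 12.2% and 20.0% of all genes called by limma-trend, a count of 0 in so short a list is near that background. With at least 10 reads, 0 of 5 were called in each comparison, beside 19.9%, 29.7% and 42.2% of all genes.

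**Figure D4:**
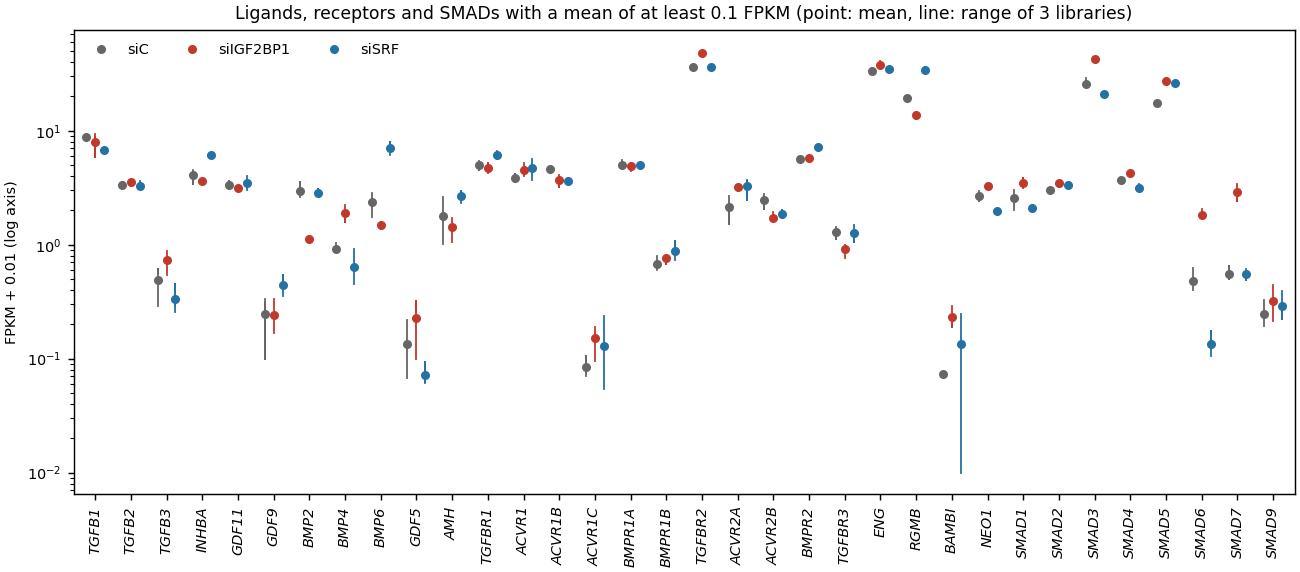
FPKM + 0.01 (log axis) of 34 ligand, receptor and SMAD genes whose mean reached 0.1 FPKM, as the mean (point) and range (line) of 3 libraries per group. BMP6 is highest in siSRF at 6.98 FPKM, BMP2 is lowest in siIGF2BP1 at 1.11 FPKM, and SMAD6 is highest in siIGF2BP1.

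All 8 SMAD genes were tested, and 4 were called higher upon IGF2BP1 depletion, beside 3.55% of all genes, with a median log2 difference of 0.55 over the list. With at least 10 reads, the same count of 4 of 8 stands beside 19.9% of all genes called in either direction. The 4 became 2, 1 and 2 without siC replicates 1, 2 and 3 and 2, 1 and 0 without siIGF2BP1 replicates 1, 2 and 3. SMAD3, the effector of TGF-beta and activin, was at 24.0, 24.0 and 28.8 FPKM in siC, at 44.6, 40.5 and 41.6 FPKM in siIGF2BP1 and at 20.2, 22.0 and 21.2 FPKM in siSRF. SMAD5, an effector of BMPs, was at 17.5 ± 0.87, 27.3 ± 2.0 and 26.4 ± 0.82 FPKM in siC, siIGF2BP1 and siSRF (SD, n = 3), and was the only SMAD called upon SRF depletion by limma-trend over all genes tested. In that comparison 1 SMAD was called higher and 1 lower with at least 10 reads, limma-voom called 1 higher and 2 lower, SMAD3 (adjusted p = 0.00144) and SMAD6 (1.5e-04), and 1 was higher and 3 lower at an unadjusted limma-trend p under 0.05. SMAD6, named after its values were seen because its mean lies below 1 FPKM, was at 0.473 ± 0.13, 1.81 ± 0.20 and 0.125 ± 0.037 FPKM in siC, siIGF2BP1 and siSRF (SD, n = 3). Both inhibitory SMADs were thus highest in siIGF2BP1. The call of SMAD3 upon IGF2BP1 depletion (adjusted p = 0.00319) was lost without any 1 library but siC replicate 3 (0.0143 to 0.0194), that of SMAD5 (0.00271) without any but siIGF2BP1 replicate 1 (0.0105 to 0.0182), that of SMAD6 (0.00553) without any but siC replicate 1 (0.0186 to 0.028) and that of SMAD7 without siIGF2BP1 replicate 3 (0.0129). Of 16 tested regulators of SMADs, 6 were called higher upon SRF depletion and none lower by limma-trend, 7 and 1 by limma-voom, with 9 higher and 1 lower at an unadjusted p under 0.05. Of all genes, 6.85% were called higher and 5.34% lower by limma-trend, and 23.4% in either direction by limma-voom. The counts at an unadjusted p have no such share beside them. With at least 10 reads 7 of the 16 were called beside 29.7%. The 6 became 3, 4 and 3 without siC replicates 1, 2 and 3 and 1, 1 and 2 without siSRF replicates 1, 2 and 3. WWP1 (adjusted p = 0.00409) and SKIL (0.00642) lost their calls without any 1 library (0.0135 to 0.0188 and 0.015 to 0.0242), USP9X (0.00421) without any but siC replicate 2 (0.0145 to 0.0223), USP15 (0.00162) without siSRF replicates 1, 2 and 3 (0.0107, 0.0113 and 0.0101) and NEDD4L (0.0018) without siSRF replicates 1 and 2 (0.0114 and 0.0119). Only the ubiquitin ligase SMURF2 kept its call throughout, at 73.4 ± 3.9, 70.8 ± 2.6 and 122 ± 4.8 FPKM in siC, siIGF2BP1 and siSRF (SD, n = 3).

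Of 16 tested genes that store or activate latent TGF-beta outside the cell, 8 were called higher upon IGF2BP1 depletion and none lower by limma-trend, with a median log2 difference of 0.54, while limma-voom called 9 higher and 2 lower and 3 were lower at an unadjusted limma-trend p under 0.05. Of all genes, 3.55% were called higher by limma-trend, and 17.1% in either direction by limma-voom. The count at an unadjusted p has no such share beside it. With at least 10 reads 10 of 15 were called beside 19.9%. The 8 became 5, 6 and 6 without siC replicates 1, 2 and 3 and 5 without each siIGF2BP1 replicate, while none became called lower. Upon SRF depletion, 1 of 15 tested genes was called higher and 3 lower, beside 6.85% and 5.34% of all genes, and the 3 became 2 without any 1 library. Limma-voom called 3 higher and 5 lower there, beside 23.4% of all genes. With at least 10 reads 7 of 15 were called beside 29.7%. FBN1, which encodes the microfibril protein fibrillin, was at 2.71, 2.92 and 3.18 FPKM in siC, at 15.1, 13.9 and 14.8 FPKM in siIGF2BP1 and at 3.91, 3.77 and 4.30 FPKM in siSRF. THBS1, encoding an activator of latent TGF-beta, was at 44.3 ± 1.8, 108 ± 3.2 and 47.3 ± 1.1 FPKM in siC, siIGF2BP1 and siSRF (SD, n = 3). ITGAV and ITGB5, subunits of an integrin that binds latent TGF-beta, reached 20.5 and 73.0 FPKM in siIGF2BP1 from 7.40 and 30.1 FPKM in siC. In siSRF they went apart, with ITGAV called higher at 11.8 FPKM and ITGB5 called lower at 19.2 FPKM. The latent TGF-beta binding protein gene LTBP3 was at 7.51, 10.5 and 3.84 FPKM in siC, siIGF2BP1 and siSRF, and BMP1, encoding a matrix protease, at 2.42, 7.14 and 2.21 FPKM. The call of LTBP3 upon IGF2BP1 depletion (adjusted p = 0.00841) was lost without any 1 library (0.0155 to 0.037), that of FBN2 (0.00378) without any but siC replicate 3 (0.0131 to 0.021) and that of LTBP2 (0.00327) without any but siC replicate 2 (0.0113 to 0.021). Of 9 tested extracellular antagonists, FSTL1 was called higher upon IGF2BP1 depletion and FST, which binds activin, was called lower upon SRF depletion (difference -0.52, adjusted p = 0.00215, and 0.0126 without siSRF replicate 2), 1 gene in each comparison beside 7.12% and 12.2% of all genes. FST was also lower upon IGF2BP1 depletion, without overlap with siC (difference -0.38), which missed the threshold with limma-trend (adjusted p = 0.0103) and passed it with limma-voom (adjusted p = 5.6e-04).

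Of 24 tested targets of TGF-beta and SMAD3, 9 were called higher and 2 lower upon IGF2BP1 depletion, and 5 higher and 2 lower upon SRF depletion, beside 3.55%, 3.57%, 6.85% and 5.34% of all genes. With at least 10 reads, 14 and 10 of 21 were called beside 19.9% and 29.7%. Upon IGF2BP1 depletion, the 9 called higher became 8, 8 and 7 without siC replicates 1, 2 and 3 and 7, 7 and 5 without siIGF2BP1 replicates 1, 2 and 3, and the 2 called lower became 1 without siIGF2BP1 replicate 2 and 0 without any other library. Upon SRF depletion, the 5 became 4 without each siC replicate and 3, 2 and 3 without siSRF replicates 1, 2 and 3, and the 2 called lower stayed 2. Of those not described elsewhere, CDKN1A was lower upon IGF2BP1 depletion (limma-trend adjusted p = 0.00997, and 0.0152 to 0.0393 without 1 library). CDKN1A averaged 2.63, 1.17 and 1.03 FPKM in siC, siIGF2BP1 and siSRF. Its siSRF libraries also lay below siC without overlap, though limma-trend did not call it there. SKIL was higher upon IGF2BP1 depletion (0.0017, and 0.0102 without siIGF2BP1 replicate 3), and JUNB was higher upon SRF depletion (0.00177, and 0.0127 without siSRF replicate 2). IL11 was at 0.798 ± 0.029, 0.975 ± 0.21 and 7.81 ± 1.3 FPKM in siC, siIGF2BP1 and siSRF (SD, n = 3). CTGF, now named CCN2, was at 45.2, 29.0 and 97.6 FPKM in siC, siIGF2BP1 and siSRF, and its call upon SRF depletion (adjusted p = 0.00429) was lost without siC replicate 1 (0.0195) or any siSRF replicate (0.0204, 0.0193 and 0.0193). COL1A1 and COL4A1 rose to 20.9 and 22.1 FPKM upon IGF2BP1 depletion from 3.5 and 6.71 FPKM, and the fibronectin gene FN1 was lower in both depletions, at 4.70 and 3.15 FPKM from 8.25 FPKM, with its call upon IGF2BP1 depletion (adjusted p = 0.00267) lost without any 1 library but siIGF2BP1 replicate 2 (0.0105 to 0.014). SNAI2, a transcription factor gene, was at 3.25, 8.38 and 5.00 FPKM, and its call upon IGF2BP1 depletion (adjusted p = 0.00665) was lost without any 1 library but siC replicate 1 (0.0244 to 0.0276). Targets of the same pathway therefore did not share a direction in either depletion. Of 11 tested BMP targets, 2 were called higher upon IGF2BP1 depletion, SMAD6 and SMAD7, whose calls without 1 library are given above (2, 1 and 1 without siC replicates 1, 2 and 3 and 1, 1 and 0 without siIGF2BP1 replicates 1, 2 and 3), beside 3.55% of all genes, and none of 9 was called upon SRF depletion by limma-trend, with 1 called lower by limma-voom and 1 in each direction at an unadjusted limma-trend p under 0.05. With at least 10 reads, 3 of 9 and 2 of 8 were called, the latter 1 in each direction, beside 19.9% and 29.7% of all genes.

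The pattern of TGFBI over the 9 libraries was most like that of SCD and QPCT among 10380 protein-coding genes (Pearson r = 0.996 and 0.995). SMAD7 was most like THBS1 and DENND2A (r = 0.993 and 0.992), and BMP4 most like HERC6 and UBXN4 (r = 0.981 and 0.976). These correlations describe 9 libraries that form 3 groups.

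Markers of other cell types were read beside these values. Of 4 haematopoietic markers, 3 were at 0 in all libraries, and the summed level did not exceed 0.126 FPKM. Of 3 endothelial markers, CDH5 alone was above 1 FPKM, at 9.38, 15.2 and 7.93 FPKM in siC, siIGF2BP1 and siSRF, with VWF at or below 0.038 FPKM and a summed level of 8.38 to 11 FPKM in siC, 14.5 to 16.4 FPKM in siIGF2BP1 and 7.71 to 8.49 FPKM in siSRF. CDH5 was called higher upon IGF2BP1 depletion (limma-trend adjusted p = 0.00873), beside 3.55% of all genes. That call was lost without any 1 library (0.0116 to 0.0418). The 4 fibroblast markers summed to 5.82 to 7.02 FPKM in siC, 23.9 to 31.8 FPKM in siIGF2BP1 and 7.89 to 9.56 FPKM in siSRF, with COL1A1, which is also among the listed TGF-beta targets, the most abundant in all libraries but siC replicate 3, and LUM at 0. The other 3 were all called higher upon IGF2BP1 depletion, beside 3.55% of all genes, and so moved with the pathway genes. PDGFRA rose to 5.41 FPKM from 2.75 FPKM (adjusted p = 0.00231), a call lost without any 1 library but siC replicate 3 (0.011 to 0.0137), and PDGFRB to 0.925 FPKM from 0.143 FPKM (adjusted p = 0.00684), a call lost without any 1 library (0.0207 to 0.0341). Upon SRF depletion none of the 3 was called by limma-trend, 1 had an unadjusted p under 0.05, and limma-voom called 2 higher. Of 10 proliferation genes, 2 were called lower upon IGF2BP1 depletion and 5 upon SRF depletion by limma-trend, beside 3.57% and 5.34% of all genes. The 2 became 1 without siIGF2BP1 replicate 3, and the 5 became 4 without siC replicate 3 and 2 without any other library. By limma-voom 5 were lower and 1 higher upon IGF2BP1 depletion and 8 lower upon SRF depletion. Of all genes, limma-voom called 17.1% and 23.4% in either direction. At an unadjusted limma-trend p under 0.05, 6 and 9 of the 10 were lower, without a share of all genes beside them. The 10 proliferation genes had summed levels of 552 to 566 FPKM in siC, 465 to 470 FPKM in siIGF2BP1 and 410 to 433 FPKM in siSRF. KRT7 and KRT8 were called higher upon IGF2BP1 depletion and KRT7 and KRT18 upon SRF depletion, of 4 and 5 tested epithelial markers. Of all genes, 3.55% and 6.85% were called higher. Without 1 library these became 1 or 0 and 1 or 2 calls. Of 4 mesenchymal markers, CDH2 was called higher and FN1 lower upon IGF2BP1 depletion, and VIM and FN1 lower upon SRF depletion. The CDH2 call was lost without siC replicate 1 or any siIGF2BP1 replicate, and that of VIM without any 1 library. The part of these markers in the pathway values was not tested.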

How the data were processed

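RNA-seq of 9 ES-2 libraries was used, in 3 groups of 3. Per the labels and the study's methods, the authors trimmed reads with cutadapt, aligned them with HISAT2 2.1.0 to GRCh38, counted them with featureCounts 1.5.3 using Ensembl 89 and scaled library sizes with edgeR. They deposited FPKM values per gene in 2 tables. Libraries were made with a directional kit (NEB), and the strand setting of counting is not given in the sources used here. Columns of the authors' fold changes and p-values were not used. The siC columns are the same in both tables. Whole reads were recovered from all FPKM values (tolerance 0.01 read), 6421764 to 9416175 per library.

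log2(FPKM + 0.1) of genes averaging 0.1 FPKM or more across the 6 libraries of a comparison was fitted with limma 3.58.1 (trend, R 4.3.3), with Benjamini-Hochberg adjustment over all genes kept and a threshold of 0.01. Fold changes on this scale understate the change of low genes. Nothing says that replicates came from separate cultures, so p-values measure the spread between these libraries, which may be technical.

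When tested on simulated data, limma-trend with these settings kept the sign and size of changes, but it missed many changed genes when few genes changed, and its false calls exceeded the threshold, whereas limma-voom found nearly all of them with few false calls. A gene that missed the threshold with limma-trend alone is therefore not read as unchanged. Nearly all of those false calls lay among genes with under 10 reads, mostly short RNAs. Among genes with at least 10 reads the share of false calls was nearer the threshold, though above it when few genes changed; it lay within counting error over pooled runs, a limit adopted after one set for each run had been exceeded. In the data, 67 of 1588, 87 of 2665 and 167 of 4460 called genes had under 10 reads on average in siIGF2BP1 against siC, siSRF against siC and siIGF2BP1 against siSRF. The planned test was kept, limma-voom is given beside it, and a minimum of 10 reads was added after seeing the data. Other pseudocounts, filters, rescaling, a joint fit, a replicate block, a looser threshold and leaving out each library were also tried.

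The 10 genes and the lists were chosen with earlier results of these data known. Other pathway genes were named if called and averaging 1 FPKM or more, at most 8 per comparison by size of difference, or from lists with few such genes; FST, SMAD5, SMAD6 and FSTL1 are given with their lists. Coordinates are from GENCODE 44, promoters from RefSeq.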

Additional observations from a re-analysis of the deposited data

How the results depend on the processing

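Under other pseudocounts (1 and 0.01), no filter, and rescaling by median ratios, no count of the 10 genes or of the pathway genes changed by more than 1.5 times. Upon IGF2BP1 depletion, the 25 pathway genes called became 40 with limma-voom, 38 at a threshold of 0.05 and 10 to 14 without 1 library. The 3 of the 10 genes called became 1 to 3 without 1 library. Upon SRF depletion, the 1 of the 10 genes called became 3 with a mean of at least 1 FPKM, 3 with limma-voom, 3 with at least 10 reads, 3 at a threshold of 0.05 and 2 with all 9 libraries in 1 fit. The 20 pathway genes called became 39 with limma-voom, 31 with all 9 libraries, 31 with at least 10 reads, 37 at a threshold of 0.05 and 10 to 16 without 1 library. Between the depletions, the 4 of the 10 genes called became 7 with limma-voom. The cause was not tested beyond the simulated data described for the processing.

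Libraries of equal replicate number showed no shared shift, with correlations of their deviations from the group means between -0.0438 and 0.0186. Whether such libraries were handled together is not given in the labels, and these correlations cannot decide it. With the replicate block, 0, 0 and 3 of the 10 genes and 7, 6 and 26 pathway genes were called in siIGF2BP1 against siC, siSRF against siC and siIGF2BP1 against siSRF, beside 0.408%, 2.29% and 9.30% of all genes (91, 501 and 2075), where the block uses up residual degrees of freedom.

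Differences that changed sign were near 0 and not called. Without 1 library, TGFB1 in siIGF2BP1 against siC ranged from -0.293 to 0.042, the latter without siIGF2BP1 replicate 2, and ID1 ranged from -0.087 to 0.281. In siSRF against siC, ID1 ranged from -0.232 to 0.135, TGFB2 from -0.105 to 0.017, TGFBR2 from -0.026 to 0.010 and SMAD7 from -0.054 to 0.124, where SMAD7 was also -0.015 after rescaling and -0.000 with limma-voom. Between the depletions, ID1 ranged from -0.061 to 0.271. Counted once per difference and setting, 735 others kept their direction and side of the threshold, 37 no longer passed it and 17 newly passed it. The cause was not tested. Depth limits TGFB3, BMP4, SMAD7 and ID1, which had 9 to 96 reads per library.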
